A study of Homo sapiens with 6 samples.

Results

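The HNRNP and SRSF genes were followed in a study of NAT10 in colorectal cancer (CRC). The set holds protein-coding genes whose symbol begins with HNRNP, the numbered SRSF genes, and TRA2A, TRA2B and SYNCRIP. Of the 58302 genes listed, 41 met this rule, and 34 of them had an Input level of at least 1 FPKM in both lines. The rule used names only and no measured value. RNA came from wild-type, untreated SW480 and DLD-1 cells, both established epithelial lines from human colorectal tumours. Each line gave 1 Input library of total RNA, 1 library of RNA recovered with an antibody against NAT10 (RIP-seq) and 1 library of RNA recovered with an antibody against N4-acetylcytidine, or ac4C (acRIP-seq). The 6 groups therefore held 1 library each. No difference below has a replicate check, no p-value was computed, and each value compares libraries, not conditions.

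The heterogeneous nuclear ribonucleoproteins (hnRNPs) coat nascent transcripts and often repress the use of nearby exons, whereas the serine and arginine rich proteins of the SRSF family bind exonic enhancers and mostly promote exon inclusion. TRA2A and TRA2B are SR-like splicing regulators, and SYNCRIP is the hnRNP also called hnRNP Q. Many of these genes regulate their own messages through alternatively spliced exons that send the transcript to nonsense-mediated decay, so their transcripts exist as coding and non-coding forms. NAT10 is the acetyltransferase that deposits ac4C on RNA. The comparisons asked how much of these messages was recovered with NAT10 and where along them ac4C peaks were called.

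For each ac4C peak the deposited lists count matches to a pattern of 12 bases, CNNCNNCNNCNN, a C followed by any 2 bases, 4 times over. The promoter windows of RefSeq (GRCh38.p14) reached 2 such sites in the transcripts of the set, both in the DLD-1 and the pooled peak at the start of HNRNPA3, on the plus strand of chromosome 2. They are shown with 30 bases each because the pattern was listed for a smaller share of peaks in the set than of all peaks. The capitals mark the 4 Cs of the listed site.
HNRNPA3 site at chr2:177212739-177212750, in the window chr2:177212730-177212759: cgactggccCcgCctCttCctctcggtccc
HNRNPA3 site at chr2:177212824-177212835, in the window chr2:177212814-177212843: gccgcccggtCgcCccCagCccgactccgg
Of the listed sites that fell in any promoter window, 129 of 130 in SW480 and 233 of 243 in DLD-1 spelled the pattern. The pattern, searched on the strand of the gene, occurs in 74.9% of all 35116 promoter windows of 300 bases, so its presence in such a window is common.

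The RIP libraries did not pair with the Inputs by label. On the log2(FPKM + 1) scale and across 16278 protein-coding genes, RIP labelled SW480 had a Pearson correlation of 0.872 with the Input labelled SW480 and of 0.945 with the Input labelled DLD-1. For the RIP library labelled DLD-1 the values were 0.857 with its own label and 0.951 with the other. These points share libraries and depth, and are genes, not replicates. Whether the labels or the samples were exchanged was not tested. The lines are therefore named by their labels, and each ratio is given over the Input of the same label, over the Input of the other label, and over the Inputs of the expression table that accompanies the acRIP-seq peaks (the second table). The whole reads behind the FPKM values summed to at least 24781171 (SW480) and 20630673 (DLD-1) in the RIP libraries and to 11381976 and 10668150 in their Inputs. The epithelial identity held, with 6 of 7 epithelial markers at 1 FPKM or more in all 6 columns, while 8 markers of leukocytes, endothelium and fibroblasts reached at most 0.645 FPKM.

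The genes were expressed at very different levels. Of the 7 genes below the Input minimum, HNRNPCL1, HNRNPCL2, HNRNPCL3, HNRNPCL4, SRSF12 and the read-through gene HNRNPUL2-BSCL2 stayed at or below 0.134 FPKM in all 4 libraries, and HNRNPCL4 and HNRNPUL2-BSCL2 were listed at 0 throughout. HNRNPA1L2, a retrotransposed copy of HNRNPA1, missed the minimum at 0.954 FPKM in the Input labelled SW480. Among the 34 others, Input levels ran from 3.62 to 158 FPKM in the library labelled SW480 and from 2.45 to 140.2 FPKM in that labelled DLD-1, with medians of 46.9 and 34.4 FPKM. The median of all protein-coding genes above the same minimum was 9.96 and 10.4 FPKM. They rested on 169 to 7998 Input reads each.

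The most abundant message in the Inputs by the mean of both belonged to HNRNPK, a KH-domain protein that binds C-rich RNA, with 154 FPKM in the Input labelled SW480 and 140.2 FPKM in that labelled DLD-1. HNRNPF, which binds runs of G, had 158 and 129.7 FPKM in the same libraries, and both genes changed order between the lines. HNRNPUL1, a paralogue of the nuclear matrix protein HNRNPU, followed with 127 and 115 FPKM. SRSF9 had 105 and 83.1 FPKM, and HNRNPM had 89.2 and 79.1 FPKM. With 1 library a line, the order of neighbouring genes cannot be set against a replicate spread. The lowest of the 34 was HNRNPUL2, at 3.62 and 2.45 FPKM.

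**Figure D1:**
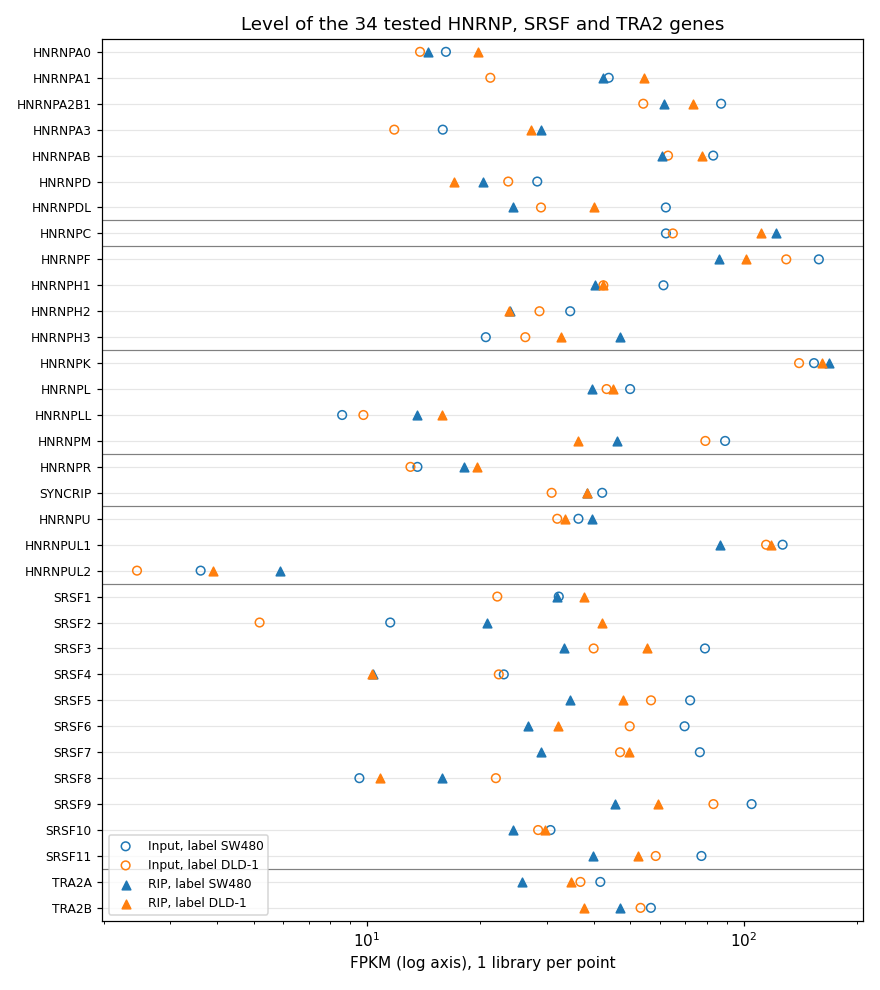
FPKM (log axis) of the 34 genes in the Input (open circles) and RIP (filled triangles) libraries, blue for the label SW480 and orange for the label DLD-1, with families separated by lines. The Input circles labelled SW480 lie right of those labelled DLD-1 in 30 of the 34 genes, and HNRNPC has both RIP triangles right of both Inputs.

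The splicing factor genes were higher in the Input labelled SW480 than in that labelled DLD-1. The difference was above 0 in 30 of 34 genes, with a median of 0.27 on the log2(FPKM + 1) scale, against a median of -0.03 over all 12324 genes with an Input of at least 1 FPKM in both lines. Of these 12324 genes, 5935 were above 0. At least 2-fold higher were 3 genes, HNRNPDL (1.07), SRSF2 (1.02) and HNRNPA1 (1.01), beside a background of 7.25% of all genes. At least 2-fold lower was 1 gene, SRSF8 (-1.12), beside 9.29%. Of the 34 genes, 31 were above 0 in the Inputs of the second table, where the median was 0.40, against 0.02 over all genes. Of all 12324 genes, 6276 were above 0 in that table. At least 2-fold higher there were HNRNPDL (1.18) and SRSF1 (1.08), 2 genes beside 9.52% of all genes, and 0 were 2-fold lower, beside 9.6%. For the genes called in the RIP table it listed 0.83 for SRSF2, 0.89 for HNRNPA1 and -0.61 for SRSF8. The excess in SW480 was mostly small. It was listed in both tables, whose Input columns carry the labels of the same 2 samples and so are not independent.

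By label, the RIP libraries had the other order, although their labels did not pair with those of the Inputs. Of the 34 genes, 21 were lower in the library labelled SW480 than in that labelled DLD-1. The share of all genes that were lower is not given here. The median was -0.21, against 0.02 over all genes. None of the 34 genes differed 2-fold on the log2(FPKM + 1) scale, beside a background of 7.6% higher and 6.17% lower. SRSF2 came closest, at -0.99, with 20.8 and 42.1 FPKM before the pseudocount. Because the Inputs differed one way and the RIP libraries the other, the RIP over Input ratios of the same genes differed between the labels, as the next comparisons show.

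In the libraries labelled SW480, most of the set was recovered less than its Input. The ratio, log2((RIP FPKM + 1)/(Input FPKM + 1)), which understates the change of low genes, was below 0 in 24 of 34 genes, with a median of -0.39. It was below 0 in 47.6% of all genes and 42.0% of protein-coding genes. All genes had a median of 0.05 and protein-coding genes one of 0.18. One gene, HNRNPH3 (1.14), was at least 2-fold above Input, beside a background of 15.6% of all genes and 17.4% of protein-coding genes. Below Input by at least 2-fold were 7 genes, beside 16.0% and 9.17%: HNRNPDL (-1.31), SRSF3 (-1.22), SRSF4 (-1.09), SRSF5 (-1.04), SRSF6 (-1.35), SRSF7 (-1.37) and SRSF9 (-1.19). The SRSF family made up most of these, with 6 of its 11 genes past 2-fold lower and a family median of -1.04, whereas the 21 hnRNP genes had a median of -0.14.

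In the libraries labelled DLD-1 the set lay at the level of other genes. Its median was 0.07, the same as that of protein-coding genes, and 21 of 34 genes were above 0. So were 5884 of all 12324 genes and 5470 of 10350 protein-coding genes. At least 2-fold above Input were SRSF2 (2.80), HNRNPA1 (1.32) and HNRNPA3 (1.14), 3 genes beside a background of 15.1% of all genes and 16.7% of protein-coding genes. At least 2-fold below Input were HNRNPM (-1.10) and SRSF4 (-1.04), 2 genes beside 19.2% and 12.8%. The SRSF median was -0.15 and the hnRNP median 0.30.

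Over the Inputs of the other label both medians were slightly negative, at -0.15 for the RIP library labelled SW480 and -0.14 for that labelled DLD-1. For the former, 2 genes were at least 2-fold above (backgrounds 9.24% of all and 10.1% of protein-coding genes) and 1 at least 2-fold below (11.7% and 3.93%). For the latter, 1 gene was at least 2-fold above (9.36% and 10.0%) and 3 were at least 2-fold below (11.8% and 4.51%). Opposite signs between the RIP libraries were less frequent under this pairing, in 4 of 34 genes or 11.8%, against 13 of 34 or 38.2% as labelled. The shares over all genes were 18.3% and 43.6%, so the set followed the whole table in this.

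For the second table, backgrounds are shares of all genes and then of protein-coding genes. Over its Inputs of the same label, in SW480, 1 gene was at least 2-fold above (18.5% and 19.0%) and 8 at least 2-fold below (14.3% and 9.04%). In DLD-1, 0 were above (17.6% and 17.9%) and 3 below (17.0% and 12.2%). Over its Inputs of the other label, 1 was above (11.8% and 11.4%) and 2 below (10.2% and 4.30%) for the RIP library labelled SW480. For that labelled DLD-1, 1 was above (12.2% and 11.6%) and 5 below (10.3% and 4.54%). HNRNPC was the gene above in the 3 of these comparisons that had one, and SRSF4 and SRSF6 were below in all 4.

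SRSF genes lay mostly below Input under most, but not all, choices of Input. Over the Inputs of the other label their median ratio was -0.54 for the RIP library labelled SW480 and -0.55 for that labelled DLD-1. There 8 of 11 genes were below 0 in both, as were 4997 of all 12324 genes and 3569 of 10350 protein-coding genes. Over the second table's Inputs of the other label the medians were -0.36 and -0.34, and over those of the same label -0.79 and 0.17. In that last comparison, of the RIP library labelled DLD-1, only 3 of 11 SRSF genes were below 0. Below 0 there were 48.0% of all genes and 45.5% of protein-coding genes. The direction of the family thus rests on which Input is used.

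**Figure D2:**
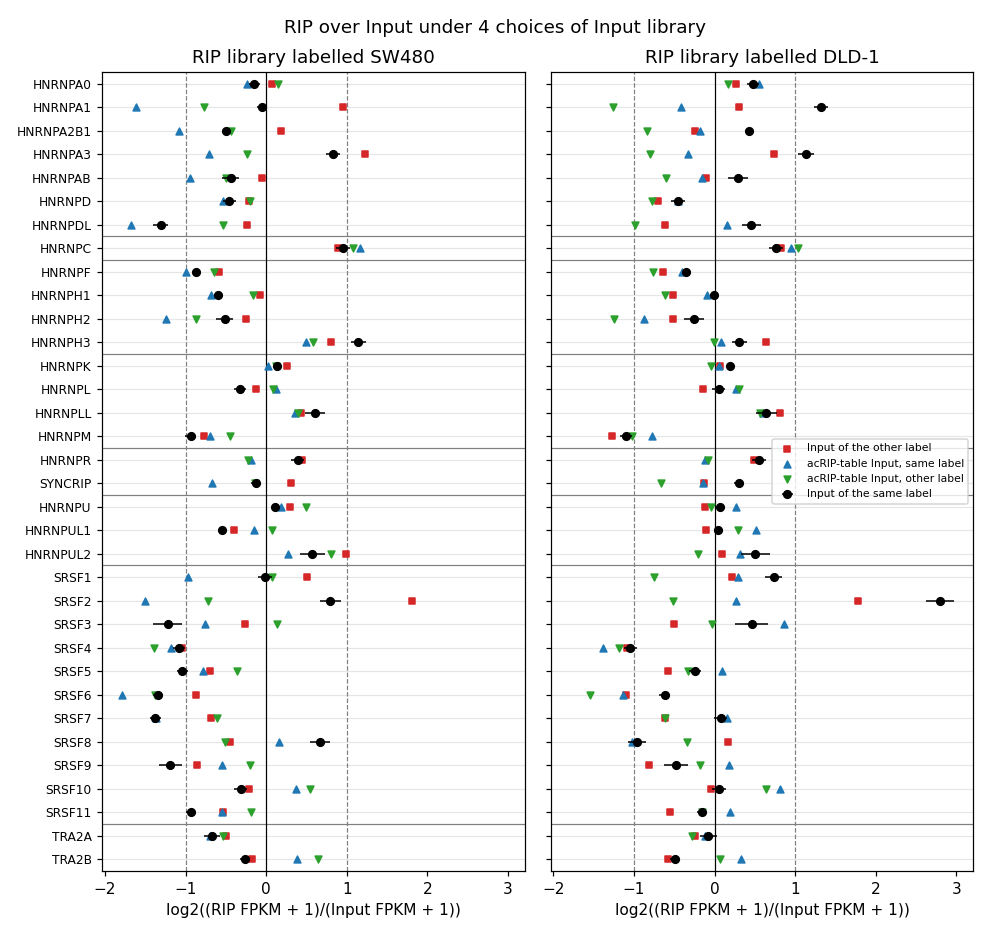
Ratio of RIP to Input (log2 scale, pseudocount 1 FPKM) for the RIP library labelled SW480 (left) and DLD-1 (right) over 4 choices of Input, with 95% counting intervals on the black points and dashed lines at 2-fold. HNRNPC and HNRNPLL lie right of 0 under every choice in both panels, SRSF4, SRSF6 and HNRNPM lie left of it, and SRSF2 spans from -1.50 to 2.80.

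Across the 8 ratios that the 2 RIP and 4 Input columns allow, 2 of 34 genes were above 0 in all and 8 were below 0 in all. Among protein-coding genes 20.4% were above and 11.0% below in all 8. The 2 genes above were HNRNPC and HNRNPLL. The 8 genes below were HNRNPD, HNRNPF, HNRNPH1, HNRNPH2, HNRNPM, SRSF4, SRSF6 and TRA2A, although HNRNPH1 came within 0.01 of 0 in one of them. The 8 ratios share columns and are not independent.

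HNRNPC, which binds U-rich tracts and is among the most abundant nuclear RNA-binding proteins, was above Input under every choice of Input. Its level was 121 FPKM in the RIP library labelled SW480 and 111 FPKM in that labelled DLD-1, against 62.2 and 64.8 FPKM in the Inputs. Both RIP libraries were thus above both Inputs, with ratios of 0.96 (counting SE 0.04) and 0.76 (0.05). How many of all genes had both RIP libraries on the same side of both Inputs was not counted, here or below. The 8 ratios ran from 0.76 to 1.17. Processed pseudogenes of HNRNPC took a further 18.3, 30.0, 19.7 and 32.2 FPKM in the RIP and Input libraries labelled SW480 and the RIP and Input libraries labelled DLD-1, and summed with them the ratios were 0.60 and 0.42.

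HNRNPLL, a relative of HNRNPL known for regulating exon skipping in lymphocytes, had 13.6 and 15.8 FPKM in the RIP libraries and 8.59 and 9.78 FPKM in the Inputs. Both RIP values were above both Inputs of the RIP table, a pattern not counted over all genes. The ratios were 0.61 (0.07) and 0.64 (0.06), with a range of 0.36 to 0.81 over the 8 choices.

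HNRNPH3, a member of the G-run binding F/H family that the study followed, had 46.9 FPKM in the RIP library labelled SW480 and 32.8 FPKM in that labelled DLD-1, against 20.7 and 26.3 FPKM in the Inputs. Both RIP values exceeded both Inputs of this table, but over the second table's Inputs the DLD-1 library had only 0.09 and -0.01. The rest of its family lay on the other side of 0 in SW480. HNRNPF had 86.2 and 102 FPKM in the RIP libraries and 158 and 129.7 FPKM in the Inputs, with ratios of -0.87 (0.03) and -0.35 (0.03), and HNRNPH1 and HNRNPH2 had -0.59 and -0.51 in SW480.

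HNRNPUL2 had 5.87 and 3.91 FPKM in the RIP libraries and 3.62 and 2.45 FPKM in the Inputs. Its ratios were 0.57 (0.08) and 0.51 (0.09), and ran from -0.21 to 0.99 over the 8 choices. HNRNPK, the most abundant member of the set in the RIP libraries, had 168 and 161 FPKM there and ratios near 0, at 0.13 (0.02) and 0.20 (0.02). HNRNPU, a scaffold protein of nuclear RNA and chromatin, was also near 0, at 0.11 and 0.07, as was HNRNPL, a binder of CA repeats, in DLD-1, at 0.05.

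SRSF2, HNRNPA1 and HNRNPA3 had lower ratios over the Inputs of the second table than over those of the RIP table. SRSF2, an exon-enhancer binding protein of nuclear speckles, had 20.8 FPKM in the RIP library labelled SW480 and 42.1 FPKM in that labelled DLD-1. Its Inputs were 11.5 and 5.19 FPKM in the RIP table but 41.3 and 22.8 FPKM in the second table, which is 3.58 and 4.40 times as much. Ratios of 0.80 (0.07) and 2.80 (0.09) became -1.50 and 0.27 over the second table after scaling to the same median.

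HNRNPA1, a shuttling splicing repressor, had 42.2 and 54.4 FPKM in the RIP libraries and 43.8 and 21.2 FPKM in the Inputs of the RIP table, with ratios of -0.05 (0.03) and 1.32 (0.04). The second table listed 89.5 and 47.9 FPKM, and the ratios over it were -1.62 and -0.42. Its 75 annotated pseudogenes summed to 67.5 and 79.1 FPKM in the RIP libraries and 35.5 and 30.3 FPKM in the Inputs of the RIP table, but to 21.5 and 19.2 FPKM in the second table. Pseudogenes thus took more than the parent gene in 3 of the 4 libraries of the RIP table, and less in both columns of the second. In the RIP libraries this excess rested on HNRNPA1P7, with 27.0 and 31.8 FPKM there and 0 in both Inputs of the RIP table. Without it the pseudogenes took less than the parent in both RIP libraries. Summed with all 75, HNRNPA1 had ratios of 0.46 and 1.36, which include HNRNPA1P7.

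HNRNPA3, a close paralogue, had 29.0 and 27.2 FPKM in the RIP libraries and 15.9 and 11.8 FPKM in the Inputs, with ratios of 0.83 (0.04) and 1.14 (0.05), and -0.71 and -0.33 over the second table. Its 16 pseudogenes took 7.50 and 9.46 FPKM in the RIP libraries and 12.4 and 5.93 FPKM in the Inputs, and summed with them the ratios were 0.36 and 1.01. How reads were assigned between near-identical copies is not given in the sources used here, and the part of it in these ratios was not tested. In each line 3 of the 34 genes were at least 2-fold higher in the scaled Inputs of the second table, and none 2-fold lower. The share of all genes was not counted, so whether this is few or many is not known.

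HNRNPA2B1, known for roles in splicing and microRNA processing and followed by the study, had 61.5 and 73.3 FPKM in the RIP libraries and 87.1 and 54.1 FPKM in the Inputs. Both RIP levels lay between the Inputs. The ratios accordingly had opposite signs as labelled, -0.50 (0.02) and 0.43 (0.02), and with the labels of the Inputs swapped they were again opposite, 0.18 and -0.25, while all 4 ratios over the second table were negative, from -1.09 to -0.18.

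By the ratios as labelled, the genes lowest in both RIP libraries came mainly from the SRSF family. Of the 8 genes below 0 under every choice of Input, only SRSF4 and SRSF6 belonged to it. SRSF4 had 10.3 FPKM in each RIP library and 23.1 and 22.4 FPKM in the Inputs labelled SW480 and DLD-1. Its ratios of -1.09 (0.04) and -1.04 (0.04) were the only ones in the set at least 2-fold lower in both labels, and over all 8 choices they ran from -1.39 to -1.04. SRSF6, which controls inclusion of alternative exons in many messages, had 26.8 and 32.1 FPKM in the RIP libraries and 69.6 and 49.8 FPKM in the Inputs, with ratios of -1.35 (0.03) and -0.62 (0.03) and a range of -1.79 to -0.62. SRSF9 had 45.5 and 59.3 FPKM against 105 and 83.1 FPKM, with ratios of -1.19 (0.07) and -0.48 (0.07). Over all 8 choices its ratios ran from -1.19 to 0.17. In these 3 genes no RIP library reached an Input of the RIP table, a pattern not counted over all genes.

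HNRNPM, which regulates splicing of messages that differ between epithelial and mesenchymal cells, had 46.1 and 36.4 FPKM in the RIP libraries and 89.2 and 79.1 FPKM in the Inputs. Its ratios were -0.94 (0.03) and -1.10 (0.04), and from -1.27 to -0.44 over the 8 choices. HNRNPD, a binder of AU-rich elements that acts in message decay, had 20.4 and 17.0 FPKM in the RIP libraries and 28.3 and 23.7 FPKM in the Inputs, with ratios of -0.46 (0.04) and -0.45 (0.05). Both genes had their RIP libraries below both Inputs.

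The other genes were spread around 0. The opposite signs that 13 genes showed as labelled included HNRNPDL (-1.31 and 0.46), SRSF3 (-1.22 and 0.46), HNRNPAB (-0.44 and 0.29) and SYNCRIP (-0.13 and 0.30). SRSF8, an intronless copy related to SRSF2, was the other way round, at 0.67 and -0.96. In the RIP table it was also the only SRSF gene with less Input in SW480 than in DLD-1. In the second table SRSF4 was lower in SW480 as well (-0.15). HNRNPR, the paralogue of SYNCRIP, had 0.39 and 0.55. TRA2A had -0.67 and -0.08, and TRA2B had -0.26 and -0.49. SRSF1 had -0.01 and 0.73, and SRSF11 -0.93 and -0.15.

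Other splicing genes were taken as a list of 48 genes of the spliceosome, SR protein kinases, import receptors and related regulators, of which 46 passed the Input minimum. In the label SW480, 1 was at least 2-fold above and 6 at least 2-fold below Input, with a median of -0.14. The background was 15.6% and 16.0% of all genes, and 17.4% and 9.17% of protein-coding genes. In the label DLD-1, 7 were above and 2 below, with a median of -0.04. There the background was 15.1% and 19.2% of all genes, and 16.7% and 12.8% of protein-coding genes. With the Inputs exchanged between the labels, 0 were above and 1 below in SW480, and 1 above and 2 below in DLD-1. The backgrounds were then 9.24% and 11.7% of all genes and 10.1% and 3.93% of protein-coding genes in SW480. In DLD-1 they were 9.36% and 11.8% of all genes and 10.0% and 4.51% of protein-coding genes. The highest by the smaller of both ratios were PPP1R8 (0.58 and 0.72), a nuclear inhibitor of protein phosphatase, SRPK1 (0.79 and 1.01), a kinase of SR proteins, and TNPO1 (0.51 and 1.13), an import receptor that carries HNRNPA1 into the nucleus. The lowest were SRRM2 (-1.84 and -1.16) and SON (-0.90 and -0.55), large scaffold proteins of nuclear speckles, and RBM25 (-1.15 and -0.89), a splicing regulator.

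The acRIP-seq peaks covered nearly all of the set. Of the 34 genes, 27 had at least 1 peak in SW480 (79.4%, exact binomial 95% interval 62.1 to 91.3) and 31 in DLD-1 (91.2%, 76.3 to 98.1). The background was 51.1% and 56.8% of protein-coding genes with an Input of at least 1 FPKM in both lines. Among protein-coding genes with an Input of at least 50 FPKM in both lines it was 81.2% and 84.3%, close to the share in the set, so abundance moves with this result and its part was not tested. Of the 11 genes of the set at that level, 8 had a peak in SW480 and 10 in DLD-1. Peaks were called on the pooled libraries in 31 of 34 genes, beside 63.6%. Intervals cover counting error only, and peaks of one gene are not independent.

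Both lines listed a peak in 26 of the 34 genes, beside 40.3% of the 10350 protein-coding genes above the Input minimum. SRSF8 had one in SW480 only, beside 10.9% of the same protein-coding genes. HNRNPH3, SRSF5, HNRNPUL1, HNRNPLL and TRA2A had one in DLD-1 only, beside 16.5%. SRSF10, a splicing repressor when dephosphorylated, and TRA2B had no listed peak in either line, beside 32.3%. Their Input levels were 28.5 to 56.7 FPKM. HNRNPUL1, with an Input of 127 FPKM in SW480, had 0 peaks there, against 4 peaks in DLD-1 with folds of 2.98 to 16.5. Of protein-coding genes with an Input of at least 50 FPKM in both lines, 81.2% had a peak in SW480. The depth of the acRIP libraries is unknown, so absence from a list is not absence of the mark.

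There were 63 peaks in SW480 and 104 in DLD-1, or 2.25 and 3.25 per gene with a peak, against 1.45 and 1.97 over all genes with a peak. HNRNPA3 had the most, 6 in SW480 and 8 in DLD-1, followed by HNRNPUL2 with 4 and 6, HNRNPA1 with 3 and 6, HNRNPH1 with 2 and 7, and HNRNPD with 5 and 3. SRSF6 and SYNCRIP had 2 and 6 each. The read-through gene HNRNPUL2-BSCL2 was left out of these counts, because it was listed at 0 FPKM throughout and its peaks (3 in SW480 and 5 in DLD-1) included 2 in each line that overlapped an HNRNPUL2 peak with the same fold.

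**Figure D3:**
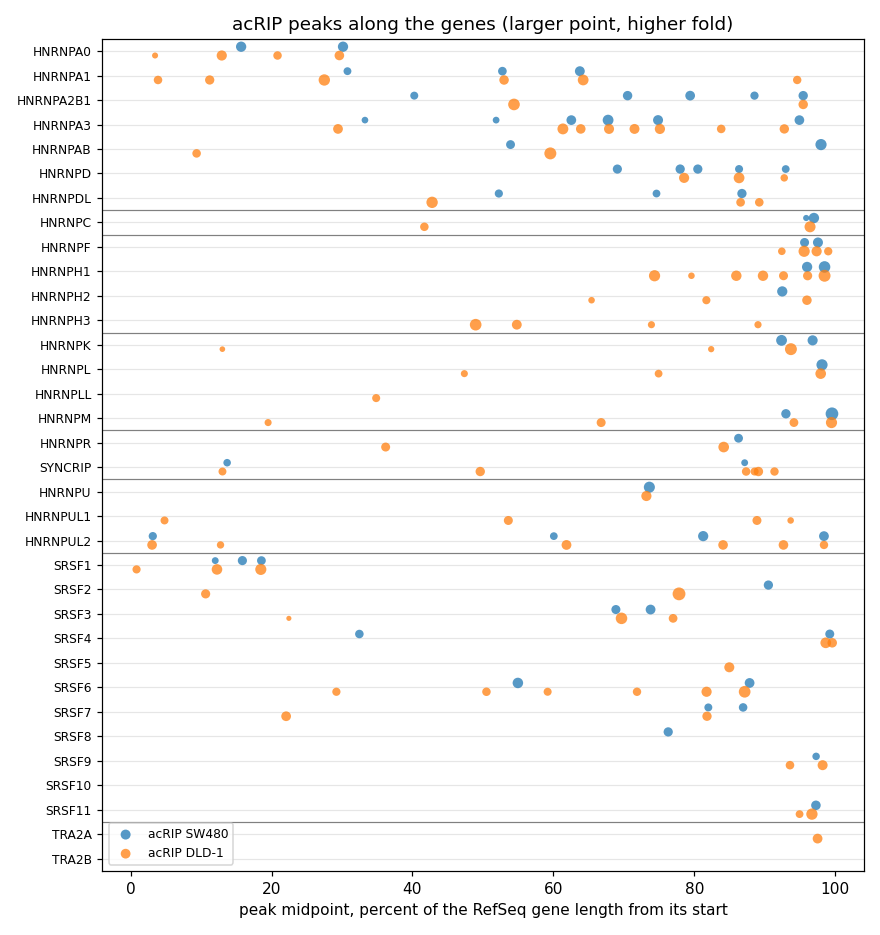
Midpoint of each acRIP peak as a percent of the RefSeq gene length from its start, for SW480 (blue) and DLD-1 (orange), with larger points for a higher fold of acRIP over Input. Of the peaks of the set, including those of HNRNPA1L2 which is not drawn, 36 of 63 in SW480 and 54 of 104 in DLD-1 lie past 75% of the gene.

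About as many peaks as elsewhere were placed in the 3'-UTR. The authors placed 47.6% (34.9 to 60.6) of the peaks of the set in the 3'-UTR in SW480 and 37.5% (28.2 to 47.5) in DLD-1, against 53.0% and 41.5% of all peaks, and 20.6% and 31.7% in the CDS, against 24.3% and 38.4%. A general class named exon held 31.7% (20.6 to 44.7) and 27.9% (19.5 to 37.5), against 21.5% and 18.4% of all peaks and 16.6% and 15.0% of peaks in protein-coding genes. This class went by gene: in the 9 genes of the set that had it in SW480 and the 11 in DLD-1, every peak was of this class. They were HNRNPA1L2, HNRNPA2B1, HNRNPD, HNRNPH1, HNRNPL, HNRNPU, SRSF4, SRSF9 and SRSF11 in both lines, with HNRNPH3 and SRSF5 in DLD-1. In HNRNPH1 they lay as far as 98.5% along the gene. None of their peaks was placed in the 3'-UTR or the CDS, while the denominators of those shares include them.

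Within the SRSF genes 11 of 15 peaks in SW480 and 11 of 23 in DLD-1 were in the 3'-UTR, and 0 and 5 in the CDS. In the hnRNP genes 19 of 48 and 27 of 80 were in the 3'-UTR, and 13 and 28 in the CDS. The intervals of both families overlap in each line, at 44.9 to 92.2% against 25.8 to 54.7% in SW480.

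Several of the strongest peaks stood near the gene ends. In HNRNPM the 3'-UTR peak at chr19:8488696-8489114 had a fold of 581 in the SW480 list, and the DLD-1 list had an overlapping one at chr19:8488636-8489114 with 116. In SRSF2 the 3'-UTR peak at chr17:76734264-76735429 had a fold of 696 in DLD-1, while the overlapping SW480 peak at chr17:76734145-76734712 had 20.3. The overlap covered less than 50% of the DLD-1 peak, and the folds ranked at 99.8% of the DLD-1 list and at 51.7% of the SW480 list.

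In HNRNPH1 a peak at chr5:179614208-179614778 was called with identical bounds in both lines, with folds of 172 and 264. HNRNPK had a 3'-UTR peak at chr9:83968143-83969603 with a fold of 256 in DLD-1, where SW480 listed 2 peaks with folds of 42.7 and 81.2. HNRNPC had a 3'-UTR peak from the same end, chr14:21210663-21211292 in SW480 with a fold of 53.1 and chr14:21210663-21211955 in DLD-1 with 101. HNRNPH3, without a peak in SW480, had a fold of 190 at chr10:68337177-68337475 in DLD-1.

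The peaks of the set were as strong as others in SW480 and somewhat stronger in DLD-1. The median fold was 19.8 against 19.5 over all SW480 peaks and 21.7 against 14.6 over all DLD-1 peaks. In the top 5% of folds there was 1 peak of the set in SW480, that of HNRNPM, and there were 15 in DLD-1, in 14 genes.

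Peaks of the set recurred between the lines. In SW480, 54 of 63 (85.7%, 74.6 to 93.3) overlapped a DLD-1 peak by at least 1 base on the same strand, against 55.3% of all SW480 peaks. In DLD-1, 47 of 104 (45.2%, 35.4 to 55.3) overlapped a SW480 peak, against 36.5%. When an overlap of 50% of each peak was required, the shares were 44.4% against 36.2% and 26.0% against 24.7%, so the excess was mostly in partial overlaps. Peaks per gene were also more numerous in the set, which was not separated from the overlap.

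Sites of the C-rich pattern were rarer in the peaks of the set than in other peaks. At least 1 site was listed in 19 of 63 peaks in SW480 (30.2%, 19.2 to 43.0) and in 41 of 104 in DLD-1 (39.4%, 30.0 to 49.5), against 56.2% (55.2 to 57.2) and 55.1% (54.3 to 55.9) of all peaks. Per kilobase of peak there were 1.37 and 2.33 sites, against 5.13 and 4.64. The share was low in both families, at 31.2% in hnRNP peaks and 26.7% in SRSF peaks in SW480, and at 40.0% and 39.1% in DLD-1.

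The difference stood within classes of length in most cases. In peaks of up to 200 bases the share was 16.7% against 45.0% in SW480 and 20.7% against 42.2% in DLD-1. In peaks of 201 to 400 bases it was 38.7% against 60.5% and 28.9% against 58.5%. In longer peaks it was 28.6% against 84.8% in SW480, but 73.3% (54.1 to 87.7) against 79.6% in DLD-1, where the intervals overlapped. HNRNPH1, HNRNPK and HNRNPM show the range of strong peaks, with 0 sites in 571 bases in HNRNPH1, 1 site in 1406 bases in HNRNPK and 1 site in 419 bases in HNRNPM. The most sites were 12, in a 780-base peak of HNRNPA0 in DLD-1 (chr5:137752847-137753626, fold 45.6).

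**Figure D4:**
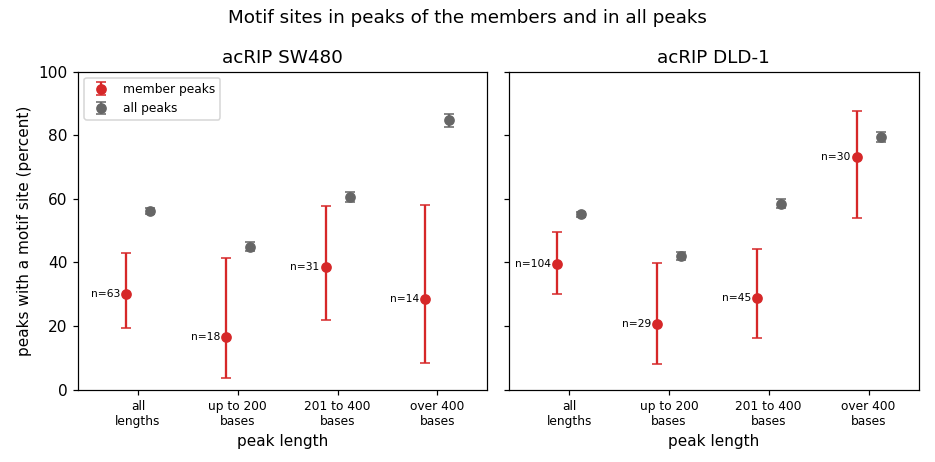
Percent of peaks with at least 1 site of the 12-base pattern in the set (red) and in all peaks of the list (grey), for all peaks and by peak length, with exact 95% binomial intervals. Red points lie below grey in each class, with overlapping intervals in DLD-1 peaks of over 400 bases.

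The RIP ratios and peaks of 4 genes, chosen after their values were seen, are set side by side here. HNRNPM combined the highest fold of the set in SW480 with a RIP ratio of -0.94, and SRSF4, below Input under every choice, had 2 peaks in each line with folds of 16.1 and 72.4 for the strongest. HNRNPLL, above Input under all choices, had no peak in SW480, and its 1 peak in DLD-1 had a fold of 7.87. HNRNPC, above Input under all choices, had peaks in both lines, with the folds of 53.1 and 101 given above.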

How the data were processed

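Members were the rows of the RIP-seq table matching the symbol rule. Members and lists were chosen with earlier results of these data known. The authors deposited FPKM per Ensembl gene for RIP and Input. The unit of the second, acRIP-seq table is not named and was read as FPKM. The processing notes of the submitters name cutadapt 2.5 and HISAT2 2.1.0, and the role of each is not given in the sources used here, nor are the counter, the peak caller or strand. In the deposited peak lists the authors give a p-value, a fold of acRIP over Input and motif sites on GRCh38. Starts counted from 0 were moved by 1 base. The deposited ratios of IP to input were not used. The study's text mentions IgG, and only Input was analysed here.

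The smallest whole reads that fit the FPKM steps were solved for 23489 of 23515 genes (tolerance 0.003), checked on simulated data. They gave counting SEs of 0.02 to 0.10 (log2) that cover counting error only. Ratios used log2(FPKM + 1), and called means at least 2-fold. Genes with full values were the 5 highest by the smaller and the 5 lowest by the larger ratio, the 5 with most Input, the 5 with most peaks, HNRNPH3 and HNRNPA2B1; other genes, strongest peaks and the sequences shown were chosen after their values were seen. Second-table Inputs were scaled to equal medians of tested genes (1.47 and 1.52). RefSeq held all 41 genes and 37 promoters. Python 3.11.15, pandas 2.3.3, numpy 2.4.6 and scipy 1.17.1 were used.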

Additional observations from a re-analysis of the deposited data

Results flagged for a closer look

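In 7 genes the RIP over Input ratio had opposite signs in the libraries labelled SW480 and DLD-1, each beyond its 95% counting interval, and with 1 library a group the difference was not tested. SW480 minus DLD-1, the log2 ratio differed by -0.62 in HNRNPA0, -0.93 in HNRNPA2B1, -0.73 in HNRNPAB, -1.77 in HNRNPDL, -1.69 in SRSF3, 1.63 in SRSF8 and -0.43 in SYNCRIP. These 7 were 20.6% of the 34 genes, beside 36.4% of 10266 protein-coding genes with such signs. With the Inputs exchanged between the labels, 3 of the 7 still had opposite signs, each turned: HNRNPA2B1 (0.18 in SW480 and -0.25 in DLD-1), SYNCRIP (0.30 and -0.13) and SRSF8 (-0.45 and 0.16). The RIP libraries resemble the Input of the other label.

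Of 127 annotated pseudogenes of the family, which are not members of the set, 25 had at least 1 FPKM in a library of the RIP table. On the log2(FPKM + 1) scale 3 of them, all copies of HNRNPA1, were at least 2-fold above Input in both RIP libraries, and 4 were at least 2-fold below in both (HNRNPA1P59, HNRNPA3P11, HNRNPLP2 and HNRNPMP1). HNRNPA1P7 had 27.0 and 31.8 FPKM in the RIP libraries (SW480, then DLD-1) and was listed at 0 in both Inputs of the RIP table, yet at 6.98 and 5.86 FPKM in the second table. HNRNPA1P41 had 3.13 and 4.88 FPKM in the RIP libraries against 1.03 and 0.319 FPKM in the Inputs. HNRNPA1P35 had 2.94 and 1.44 FPKM against 0.142 and 0.0769 FPKM. Recovered as whole reads, the Input values stand for as few as 7 and 2 reads in HNRNPA1P41 and 2 and 1 in HNRNPA1P35. For HNRNPA1P7 the solved reads were 1 in each RIP library, since only the smallest whole numbers are solved. Its true reads are therefore not known. On the other side, HNRNPLP2 had 2.95 and 3.49 FPKM in the RIP libraries against 18.8 and 18.9 FPKM in the Inputs.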

How the results depend on the processing

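No paired analysis was possible because the groups compared share only 1 replicate number, with 1 library each, so no library could be left out either. The ratios are within a line, and a fit taking the lines as replicates was not run. The search for motif sites within the peaks was not run, since no genome was used here. Counts of genes at least 2-fold above and below Input were 1 and 7 in SW480. The count above was 0 after centring on protein-coding genes and 2 with the other label's Input. The count below was 1 with the other label's Input and 2 with the second table's other label. At a ratio of 1.5 the counts were 6 and 12. For a ratio of 1.5, centring and other pseudocounts, no share of all genes was counted in either line. The median of -0.39 became -0.48 with Input of at least 10 FPKM, -0.56 centred, -0.15 over the other label, -0.68 over the second table and -0.20 over its other label. In DLD-1 (3 above, 2 below) the count below was 1 with a pseudocount of 5. The count above was 1 over the other label, 0 over the second table and 1 over its other label, where 5 were below. At a ratio of 1.5 the counts were 6 and 4. The median of 0.07 became -0.14 over the other label and -0.34 over the second table's other label. Genes past 2-fold that changed sign did so over the second table. HNRNPA1 in DLD-1 had -0.42 over the same label and -1.26 over the other, HNRNPA3 -0.33 and -0.80, SRSF2 -0.52 over the other, and SRSF3 in SW480 0.13 over the other. The Input difference had 0 genes 2-fold lower and a median of 0.40 in the second table. Shared peaks were 44.4% and 26.0% at an overlap of 50%. In SW480 peaks at or above the median fold, the 3'-UTR share was 63.6% and the CDS share 6.06%. The other 68 values of these summaries moved by less than the counting error or 1.5 times. Of the values of single genes, 355 stayed within the counting interval, and 241 moved beyond it with no called gene changing sign. Why the values moved was not tested.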
